A study of Homo sapiens with 8 samples.

Results

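The SUN2 knockout line of MDA-MB-231 was compared with unmodified cells in 4 of the 8 RNA sequencing libraries of the series: 2 labelled SUN2KO and 2 labelled WT. MDA-MB-231 is an established human line of triple-negative breast cancer with a mesenchymal appearance. The other 4 libraries came from 2 lines of the same cells with truncated SUN2, against which the knockout was also set: Kashlid, lacking residues 569 to 585, made to part SUN2 from Nesprin-2G, and LBD, lacking residues 1 to 139, made to part it from the lamins. The labels do not say how any line was made, whether it is 1 clone, whether the truncations were placed in SUN2KO or WT cells, or whether the 2 replicates of a group were grown apart. The p-values therefore cover no more than the spread from library to library, which may be of technical origin. All genes that passed a filter on low counts were described, 14016 of 25369.

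SUN2 sits in the inner nuclear membrane. Its SUN domain reaches into the space between both nuclear membranes, where it binds the KASH tails of nesprins in the outer membrane, and its other end meets the lamins inside the nucleus. Together these proteins form the LINC complex, which passes force from the cytoskeleton to the nucleus.

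SUN2 itself had 1408 and 1441 counts in the WT libraries and 474 and 564 in SUN2KO, with 643 and 603 for Kashlid and 562 and 579 for LBD. In CPM, counts scaled to the library total after TMM correction, the knockout stood at 25.6 and 30.3, WT at 83.7 and 81.9, Kashlid at 37.2 and 35.4 and LBD at 32.5 and 34.6. The knockout was lowest by a small margin, and all 3 lines were far below WT. The log2 fold change of SUN2KO against WT was -1.56 ± 0.08 (SE of the fit, adjusted p = 1.01e-11, edgeR's quasi-likelihood test with Benjamini-Hochberg adjustment, used for every adjusted p below). Transcript thus remained in the libraries labelled SUN2KO, and counts do not show whether protein was made.

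Against WT, 5137 genes (36.7% of those tested) passed at an adjusted p under 0.05, 2455 higher (17.5%) and 2682 lower (19.1%). At least 2-fold changes were found in 630 of them (4.49%), 312 higher (2.23%) and 318 lower (2.27%). Most of this was shared: 1442 of the higher and 1797 of the lower genes also passed in the same direction in both truncation lines, in comparisons that use the same WT libraries. To find what set the knockout apart, a gene was required to pass against WT, against Kashlid and against LBD, each time in the same direction. This left 477 genes (3.4%), 210 higher in SUN2KO (1.5%) and 267 lower (1.9%), called the knockout set below. In 90 of them (0.642%) the change from WT was at least 2-fold, 42 higher (0.3%) and 48 lower (0.342%). The test against Kashlid alone called 2529 genes (18%), 1279 higher (9.13%) and 1250 lower (8.92%), and that against LBD 1890 (13.5%), 952 higher (6.79%) and 938 lower (6.69%). The 3 tests share the SUN2KO libraries, so they are not independent. The set held 230 genes without SUN2KO replicate 1, 286 without SUN2KO replicate 2 and 300 without LBD replicate 2, and 303 in DESeq2. A direct test against the mean of both truncation lines called 2624 genes (18.7%), 1376 higher (9.82%) and 1248 lower (8.9%), or 1039 and 1568 when libraries were scaled by their totals alone. The percentage given after a list below is the share of its tested members that passed against WT in either direction, to be read beside 36.7% of all genes.

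Within the knockout set, both SUN2KO libraries lay above all 6 others in 210 of the 210 higher genes, and below them in 266 of the 267 lower ones, an order that the rule all but fixes (8.18% and 7.81% of all tested genes had it). Their median log2 fold change was 0.46 for the higher and -0.50 for the lower genes in SUN2KO. In the truncation lines the mean change did not pass the test for 124 of the higher and 139 of the lower genes. It went the same way but less far for 52 and 72, and the opposite way for 34 and 56.

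**Figure D1:**
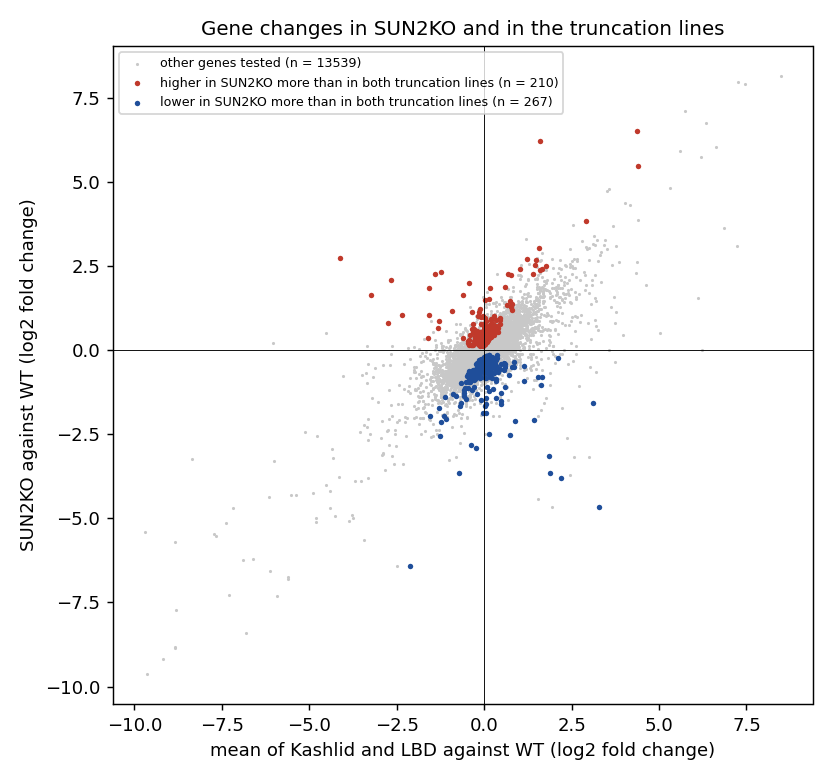
Log2 fold change of each tested gene in SUN2KO against WT (vertical axis) and the mean of the log2 fold changes of Kashlid and LBD against WT (horizontal axis), which share the WT libraries. Points of the knockout set are red (210 higher) or blue (267 lower), and for 124 of the red and 139 of the blue the mean change of the truncation lines did not pass the test.

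Total counts ranged from 16570099 to 18814795 per library. The first principal component of log2 CPM held 53.6% of the variance and parted WT from the 3 other lines, and the second held 20.1% and parted SUN2KO from the 6 other libraries. All 12 markers listed for MDA-MB-231 were detected, with a summed level of 2206 to 2250 CPM in SUN2KO and 2521 to 2593 in WT. The growth protocol also names HEK293T, a kidney line. Of 10 markers of it NEFM, NEFL, STMN2, SOX2 and PAX2 had 0 counts in SUN2KO and DLK1 had 1 and 0. Of the 4 that passed the filter, LIN28B (11 and 17 counts in SUN2KO, 0 and 0 in WT), IGF2BP1 (2258 and 2138, beside 1435 and 1502) and GAL (1329 and 1614, beside 928 and 669) were higher and TUBB2B (95 and 103, beside 155 and 157) lower. The sum was 199.9 to 208.1 CPM in SUN2KO and 132.4 to 149.8 in WT, and the part of such cells in the results was not tested.

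Chaperones and folding enzymes of the endoplasmic reticulum (ER) were lower in the knockout, and many of them lower than in either truncation line. These proteins fold secreted and membrane proteins in the ER lumen, and many are induced together when unfolded proteins build up there. Of 39 tested members, 25 were lower in SUN2KO than in WT, 2 higher (69.2%) and 12 did not pass. Of the 25, 13 belonged to the knockout set, as did 1 of the higher ones. The list had a median log2 fold change of -0.34 in SUN2KO, beside -0.15 for Kashlid and -0.09 for LBD, and the median of all tested genes was 0.00 in each line. The count of 13 was 10 without either SUN2KO replicate.

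HSPA5 (BiP, chromosome 9, 127997127 to 128003666 on hg19), the main Hsp70 chaperone of the ER, stood at 2061 and 1974 CPM in WT and at 1284 and 1237 in SUN2KO. It stood at 1945 and 2224 CPM in Kashlid and 2181 and 2166 in LBD. The knockout libraries lay well below a range that the other 6 shared. The log2 fold change was -0.68 ± 0.05 in SUN2KO (adjusted p = 1.01e-09), against 0.05 ± 0.05 in Kashlid and 0.11 ± 0.05 in LBD, which did not pass. HSPA5 falls outside the naming rule and was picked after its values were seen. In bulk RNA, fewer cells that express a gene and less RNA per cell cannot be told apart.

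HSP90B1 (GRP94), the Hsp90 of the ER, had 1502 and 1481 CPM in WT, 816 and 790 in SUN2KO, 1115 and 1172 for Kashlid and 1162 and 1186 for LBD. All 3 lines were below WT and the knockout was lowest. Its log2 fold change was -0.89 ± 0.04 in SUN2KO and -0.53 ± 0.03 against the mean of the truncation lines (adjusted p = 5.02e-10). PDIA4, a protein disulfide isomerase, fell from 481 and 466 CPM in WT to 276 and 267 in SUN2KO, with 402 and 443 for Kashlid and 472 and 461 for LBD. One LBD library thus lay within the WT range and the other just under it, and the knockout was 1.74-fold below WT. DNAJC3, a co-chaperone of BiP, showed the largest fall of the list, from 111 and 107 CPM to 51.9 and 48.3 (log2 fold change -1.12 ± 0.06), and was at 75.5 to 83.1 CPM in the 4 truncation libraries.

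The other members of the knockout set are named here although they were picked after their values were seen. MANF and CRELD2, small secreted ER stress proteins, had log2 fold changes of -0.55 ± 0.07 and -0.52 ± 0.08 in SUN2KO. Calreticulin (CALR, -0.42 ± 0.04) and calnexin (CANX, -0.30 ± 0.04) are the lectin chaperones of glycoproteins. The disulfide isomerases PDIA6 (-0.42 ± 0.05) and PDIA3 (-0.34 ± 0.05), the large Hsp70 HYOU1 (-0.38 ± 0.05), the Hsp40 DNAJB11 (-0.25 ± 0.05) and SDF2L1 (-0.22 ± 0.08) completed the group. As the rule of the knockout set requires, the truncation lines had smaller decreases, no change that passed, or an increase in each of these 9 genes. The increases were in SDF2L1, by 0.33 ± 0.08 in Kashlid and 0.29 ± 0.08 in LBD, and in HYOU1, by 0.23 ± 0.05 in LBD. PRDX4, an ER peroxiredoxin, was the 1 higher member of the knockout set, at 0.25 ± 0.06 above WT.

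Other chaperones fell alike in all 3 lines. FKBP9, a prolyl isomerase of the ER, was at 149 and 138 CPM in WT and at 77.7 and 74.5 in SUN2KO, and its log2 fold change of -0.91 ± 0.06 stood beside -1.06 ± 0.06 in Kashlid and -0.81 ± 0.06 in LBD. FKBP7, a relative, changed by -0.91 ± 0.14 in SUN2KO. Its difference from the mean of the truncation lines was -0.04 ± 0.13 and did not pass (adjusted p = 0.867). Over the whole list, with genes of the knockout set not left out, 11 of 39 members were lower in all 3 lines. This count asks for the same direction and not for falls of like size, and stands beside 1797 of all 14016 tested genes.

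**Figure D2:**
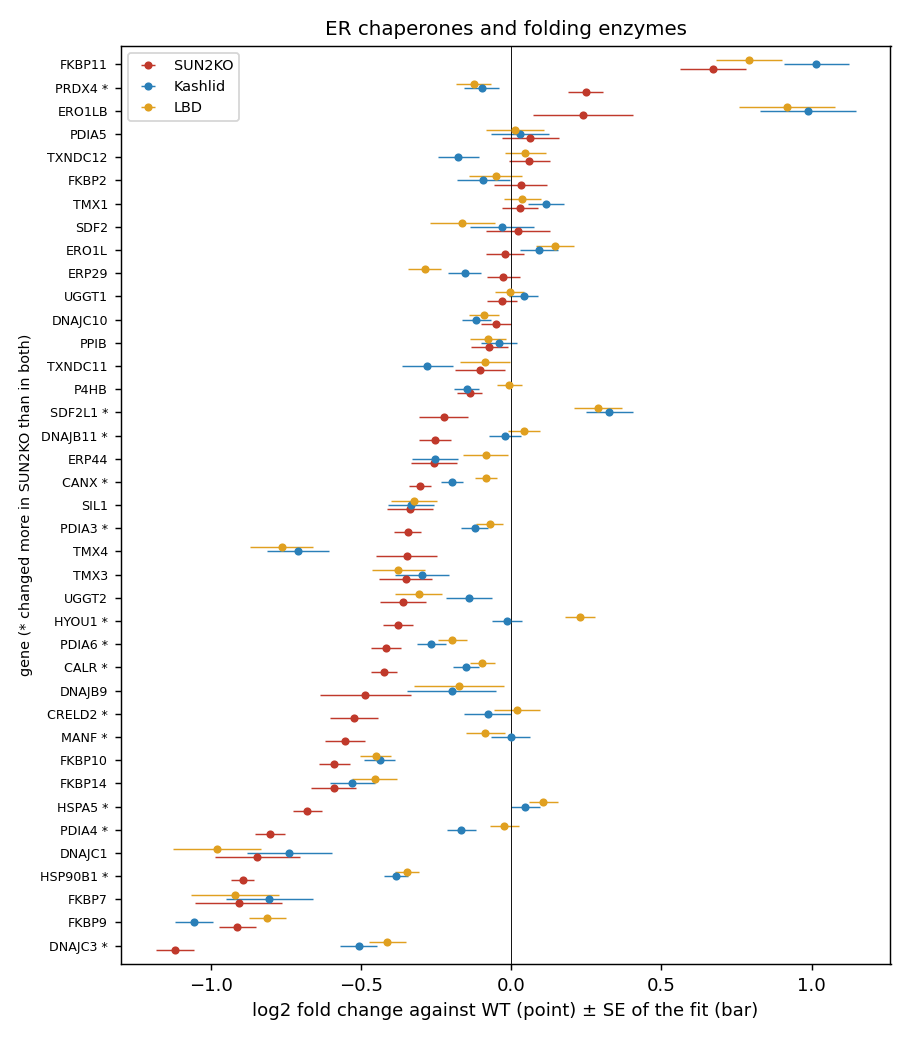
Log2 fold change against WT (horizontal axis, point, with the SE of the fit as a bar) of the 39 ER chaperones and folding enzymes tested, in SUN2KO (red), Kashlid (blue) and LBD (yellow). Stars mark the 14 genes of the knockout set, in 13 of which the red point lies left of both others by the rule, as in HSPA5 at -0.68.

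Promoters of ER chaperones are known for the ER stress element, searched here as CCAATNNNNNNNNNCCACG on both strands of the 250 bases before and 50 after each listed start (RefSeq promoters, GRCh38.p14, a build other than the hg19 of the counts). Of the 13 chaperones lower in the knockout set, 12 had a promoter in that table and 6 of these (50%) held a match, against 1 of 23 (4.35%) other tested members of the list. Of all 10939 tested genes with a promoter, 16 (0.146%) held one. The 6 matches are shown, upstream bases only, because they lie in the genes whose levels set the knockout apart, with the fixed ends of the motif in capitals. A match is a description of letters, and none was tested for function. Bases are printed in the direction of the gene, and the strand in brackets is that of the gene. HSPA5 (minus) holds its match at chr9:125241376-125241424, and HSP90B1 (plus) holds 1 on each strand at chr12:103930201-103930354. The others are CALR at chr19:12938369-12938417 (plus), CANX at chr5:179698763-179698811 (plus), CRELD2 at chr22:49918539-49918587 (plus) and PDIA6 at chr2:10812838-10812886 (minus). In CALR and CRELD2 the match lies on the strand opposite to the gene.
HSPA5: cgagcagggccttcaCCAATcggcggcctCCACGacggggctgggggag
HSP90B1: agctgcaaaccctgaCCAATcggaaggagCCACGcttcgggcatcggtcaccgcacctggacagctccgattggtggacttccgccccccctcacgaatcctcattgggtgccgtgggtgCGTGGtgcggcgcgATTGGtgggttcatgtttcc
CALR: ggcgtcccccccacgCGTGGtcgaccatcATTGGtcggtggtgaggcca
CANX: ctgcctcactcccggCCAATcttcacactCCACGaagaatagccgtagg
CRELD2: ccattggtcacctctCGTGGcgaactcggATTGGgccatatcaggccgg
PDIA6: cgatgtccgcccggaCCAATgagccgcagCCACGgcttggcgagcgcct

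ER-associated degradation removes proteins that fail to fold. Of 23 tested members, 10 were lower and 3 higher in SUN2KO (56.5%), and 4 lower ones were in the knockout set (2 without SUN2KO replicate 1), DERL3, HERPUD1, EDEM1 and SYVN1. HERPUD1, a membrane protein of the degradation complex, had 94.6 and 99.1 CPM in WT, 71.5 and 65.0 in SUN2KO, 115 and 123.2 for Kashlid and 119 and 116 for LBD. The knockout lay below WT and the truncation lines above it, with log2 fold changes of -0.51 ± 0.06, 0.30 ± 0.06 and 0.28 ± 0.06. EDEM1, a lectin that hands glycoproteins to degradation, changed by -0.33 ± 0.07 in SUN2KO and SYVN1, a ubiquitin ligase, by -0.25 ± 0.07, the latter losing its call without SUN2KO replicate 1 (adjusted p = 0.0536) or without WT replicate 2 (0.0583). DERL3, at 48 and 52 counts in WT and 20 in each SUN2KO library, changed by -1.42 ± 0.35. DERL3 was picked after its values were seen.

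Transcription factors of the ER stress response showed small differences, and these were picked after the values were seen. XBP1 changed by -0.25 ± 0.06 in SUN2KO (adjusted p = 0.00255) and ATF6 by -0.16 ± 0.06 (adjusted p = 0.0404). ATF4, of the amino acid stress branch, was at 0.10 ± 0.08 and did not pass (adjusted p = 0.333).

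The earlier and later steps of secretion did not part the knockout from the truncation lines in this way. Of 26 genes of signal peptide recognition and the ER translocon, 13 were lower and 2 higher in SUN2KO (57.7%), and 0 were in the knockout set. The list medians were -0.17 in SUN2KO, -0.16 in Kashlid and -0.15 in LBD. Of 41 genes of COPII and COPI vesicle coats and their cargo receptors, 24 were lower and 3 higher (65.9%), and 1, TMED7 (-0.31 ± 0.06), was in the knockout set. SURF4, a cargo receptor, was at 576 and 562 CPM in WT and at 367 to 401 in all 6 other libraries, those of the knockout being 389 and 379. Of 37 genes of oligosaccharyltransferase and N-glycan synthesis, 13 were lower, 4 higher (2 without either WT replicate) (45.9%) and 0 in the knockout set. TUSC3, a subunit of that enzyme, was at 54.3 and 63.2 CPM in WT and at 1.34 to 2.72 CPM in the 6 other libraries.

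Genes of the extracellular matrix formed another group. The matrix around breast cancer cells is built from collagens and from glycoproteins that cells bind through integrins. Of 26 collagen genes tested, 8 were lower and 4 higher in SUN2KO (46.2%), and the knockout set held 6 lower (3 with window medians taken out) and 1 higher. The list as a whole had a median log2 fold change of 0.01, so it did not move as 1 block. Among 41 matrix glycoproteins and proteoglycans, 15 were lower and 10 higher (61%), with 7 lower and 3 higher in the knockout set (4 lower ones in DESeq2).

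Fibronectin, FN1 (chromosome 2, 216225179 to 216300791 on hg19), the main glycoprotein of the interstitial matrix, had 795 and 849 CPM in WT, 295 and 292 in SUN2KO, 700 and 741 for Kashlid and 775 and 859 for LBD. The knockout libraries stood far below the other 6. FN1 was 2.80-fold lower in SUN2KO than in WT (log2 fold change -1.49 ± 0.05, adjusted p = 2.06e-14), against -0.19 ± 0.05 in Kashlid and -0.01 ± 0.05 in LBD. The difference between the knockout and the mean of the truncation lines was -1.39 ± 0.05 (adjusted p = 7.29e-15).

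COL4A1 and COL4A2 are neighbours that encode the chains of basement membrane collagen. COL4A1 had 124 and 123.05 CPM in WT, 83.9 and 83.1 in SUN2KO and 110 to 121 in the truncation libraries. COL4A2 had 287 and 291 CPM in WT, 219.6 and 226 in SUN2KO and 303 to 318 in the truncation libraries. Both were thus lower in the knockout (-0.56 ± 0.06 and -0.38 ± 0.05) and close to WT in the other lines. COL7A1, the anchoring fibril collagen, was at 1018 and 1062 CPM in WT, 678 and 753 in SUN2KO and 1046 to 1233 in the truncation libraries. COL4A1, COL4A2, COL7A1 and COL5A2 (below) were picked after their values were seen.

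COL5A1, a fibrillar collagen, fell in every line but furthest in the knockout, from 1275 and 1316 CPM to 516 and 542, with 614 and 704 for Kashlid and 686 and 801 for LBD. COL16A1 (-0.67 ± 0.08) and COL6A1 (-0.60 ± 0.10) completed the lower collagens. COL6A1 lost its call against WT when the median of its 5 Mb window was taken out (-0.25, adjusted p = 0.0572). Against the truncation mean COL16A1 lost its call without SUN2KO replicate 1 (adjusted p = 0.0657) and COL6A1 without SUN2KO replicate 2 (0.113). COL5A2, the partner chain of COL5A1, went the other way and rose by 0.29 ± 0.04 in SUN2KO, with -0.12 ± 0.04 in Kashlid and -0.22 ± 0.04 in LBD. COL5A3, the third chain of that family, rose in SUN2KO from 0.594 and 0.568 CPM to 2.71 and 3.06, but to 11.3 to 12.6 in the truncation libraries, so its increase was smaller in the knockout.

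Lumican (LUM) and decorin (DCN) are small leucine-rich proteoglycans that bind collagen fibrils. LUM had 87.3 and 94.0 CPM in WT, 29.8 and 25.1 in SUN2KO, 37.1 and 34.0 for Kashlid and 38.2 and 37.7 for LBD, and so fell in all lines. Its difference from the truncation mean did not pass with window medians taken out (-0.20, adjusted p = 0.0683). DCN had 12.2 CPM in each WT library, 6.55 and 6.82 in SUN2KO and 14.2 to 16.3 in the truncation libraries, and so fell in the knockout and rose in Kashlid (0.32 ± 0.12) and LBD (0.35 ± 0.12). Both are on the list of breast fibroblast markers, whose sum was 150.9 to 152.4 CPM in SUN2KO, 235.6 to 239.98 in WT and 167.3 to 179.8 in the truncation libraries. The part of other cells in these values was not tested. Members of that list differed in level. PDGFRA had 0 counts in all 8 libraries, while COL1A1 had 1955 and 2013 counts in SUN2KO and 1995 and 1914 in WT. FAP had 146 and 192 counts in SUN2KO and 329 and 331 in WT.

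Of the other matrix genes in the knockout set, picked after their values were seen, AGRN (-0.62 ± 0.06), LTBP2 (-0.48 ± 0.16), SDC4 (-0.45 ± 0.11) and NID1 (-0.41 ± 0.15) were lower. AGRN and NID1 belong to basement membranes, and SDC4 is a cell surface proteoglycan. FBLN5 (1.87 ± 0.31), FBN2 (0.45 ± 0.06) and SPARC (0.28 ± 0.06) were higher. FBLN5 and FBN2 belong to elastic fibres. FBN2, at 162 and 161 CPM in WT, reached 214 and 229 in SUN2KO and fell to 111 to 130 in the truncation libraries.

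Integrins are the cell surface receptors of this matrix, and the share of them that passed was close to that of all genes. Of 18 subunits, 7 were lower and 0 higher in SUN2KO (38.9%), and ITGB8, ITGA2 and ITGB4 were in the knockout set. ITGA2, a collagen receptor subunit, had 142 and 158 CPM in WT, 111 and 101 in SUN2KO, 255 and 233 for Kashlid and 275 and 336 for LBD. The order was knockout, WT and truncation lines, with no overlap, and the log2 fold changes were -0.50 ± 0.08, 0.70 ± 0.08 and 1.03 ± 0.08. ITGB4, the hemidesmosome subunit, changed by -0.38 ± 0.08 in SUN2KO, 0.12 ± 0.08 in Kashlid (not passed) and 0.45 ± 0.08 in LBD. ITGB8 changed by -0.93 ± 0.20, and by -0.49 with its window median taken out (adjusted p = 0.0724).

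Serpins that inhibit proteases were also in the knockout set. SERPINE2 (protease nexin-1) fell from 252 and 262 CPM to 108 and 92.7 in SUN2KO, with 124 and 121 for Kashlid and 165 and 189 for LBD. All lines were below WT, and the knockout was lowest (log2 fold change -1.35 ± 0.07). Of 17 serpins tested, 4 were lower and 4 higher in SUN2KO (47.1%) (higher: 0 without SUN2KO replicate 1, 1 without SUN2KO replicate 2 and 2 without either WT replicate), and the knockout set held 3 lower and 1 higher.

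**Figure D3:**
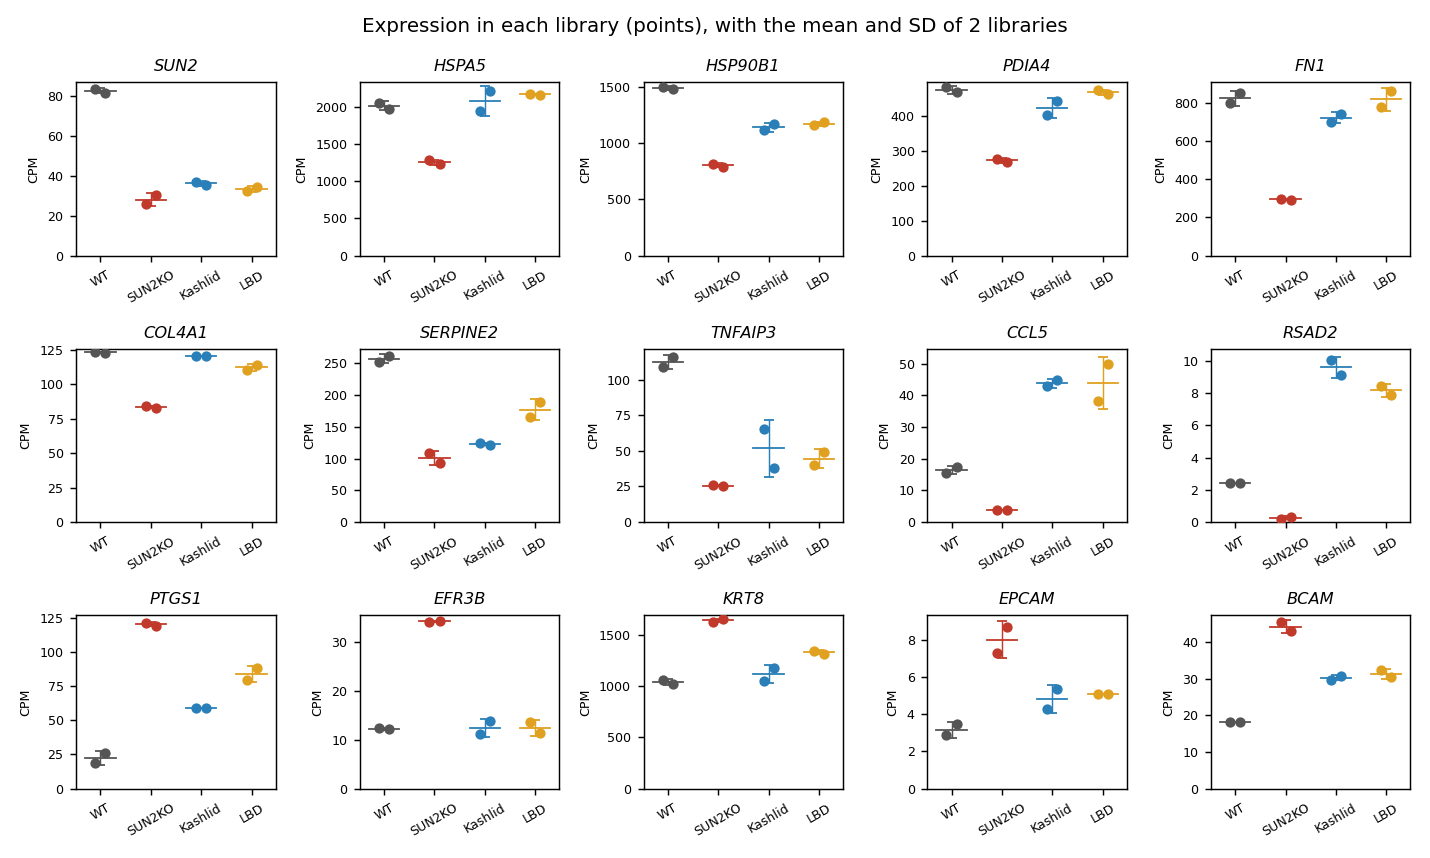
CPM (vertical axes, from 0) of 15 genes in each library (points), with the mean of 2 libraries (line) and the SD (bar), in WT (grey), SUN2KO (red), Kashlid (blue) and LBD (yellow). The knockout libraries are lowest in the first 10 genes, as for FN1 at 295 and 292 CPM, and highest in the last 5, as for PTGS1 at 121 and 119.

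Interferon-stimulated genes encode antiviral proteins and are switched on through STAT and IRF factors. Of 57 tested, 12 were higher (7 without SUN2KO replicate 2), 11 lower and 34 did not pass in SUN2KO against WT (40.4%), with a median log2 fold change of 0.08. In Kashlid 38 were higher and 4 lower (beside 21.7% and 22.7% of all genes), and in LBD 40 were higher and 2 lower (beside 19% and 21%), with medians of 0.98 and 0.96. Set against the mean of the truncation lines, 33 were lower and 2 higher in SUN2KO (beside 8.9% and 9.82% of all genes). Most of the difference between the lines thus lay in genes that were near WT in the knockout and above WT in the truncation lines.

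In 7 members the knockout was also below WT: CXCL10, CXCL11, RSAD2, OAS2, DDX60, IFIT3 and IFIT2, all of which form part of the knockout set. RSAD2 (viperin, chromosome 2, 7017796 to 7038363 on hg19) had 41 and 43 counts in WT and 4 and 6 in SUN2KO, or 2.44 CPM in each WT library and 0.216 and 0.322 in the knockout. It stood at 10.1 and 9.15 CPM in Kashlid and 8.44 and 7.89 in LBD. The knockout was 8.84-fold below WT (log2 fold change -3.14 ± 0.37), and Kashlid and LBD were above it by 1.97 ± 0.20 and 1.74 ± 0.20.

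OAS2, an enzyme that senses double-stranded RNA, had 45 and 25 counts in WT and 11 and 14 in SUN2KO, while the truncation libraries reached 15.9 to 19.4 CPM. Its fall in the knockout (-1.58 ± 0.35) passed, but not without WT replicate 1 (adjusted p = 0.0503). DDX60, a helicase, had 33.5 and 38.2 CPM in WT, 18.2 and 20.04 in SUN2KO, 71.8 and 82.9 for Kashlid and 75.3 and 83.5 for LBD. IFIT3 showed the same order, with 18.4 and 17.3 CPM in WT, 9.79 and 10.5 in SUN2KO and 50.1 to 56.2 in the truncation libraries. IFIT2 was only slightly below WT (-0.23 ± 0.09, adjusted p = 0.0463). The chemokine genes CXCL10 and CXCL11 were near the limit of counting, with 9 and 7 and with 10 and 16 counts in WT, and 1 and 0 and 1 and 1 in SUN2KO. CXCL10, CXCL11, IFIT3 and IFIT2 were picked after their values were seen.

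SAMD9, by contrast, was higher than WT in every line. It had 24.3 and 23.8 CPM in WT, 41.8 and 43.5 in SUN2KO and 49.7 to 60.2 in the truncation libraries. Members of the list thus differed among themselves within the knockout, from -3.79 in CXCL10 to 1.69 at the other end.

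**Figure D4:**
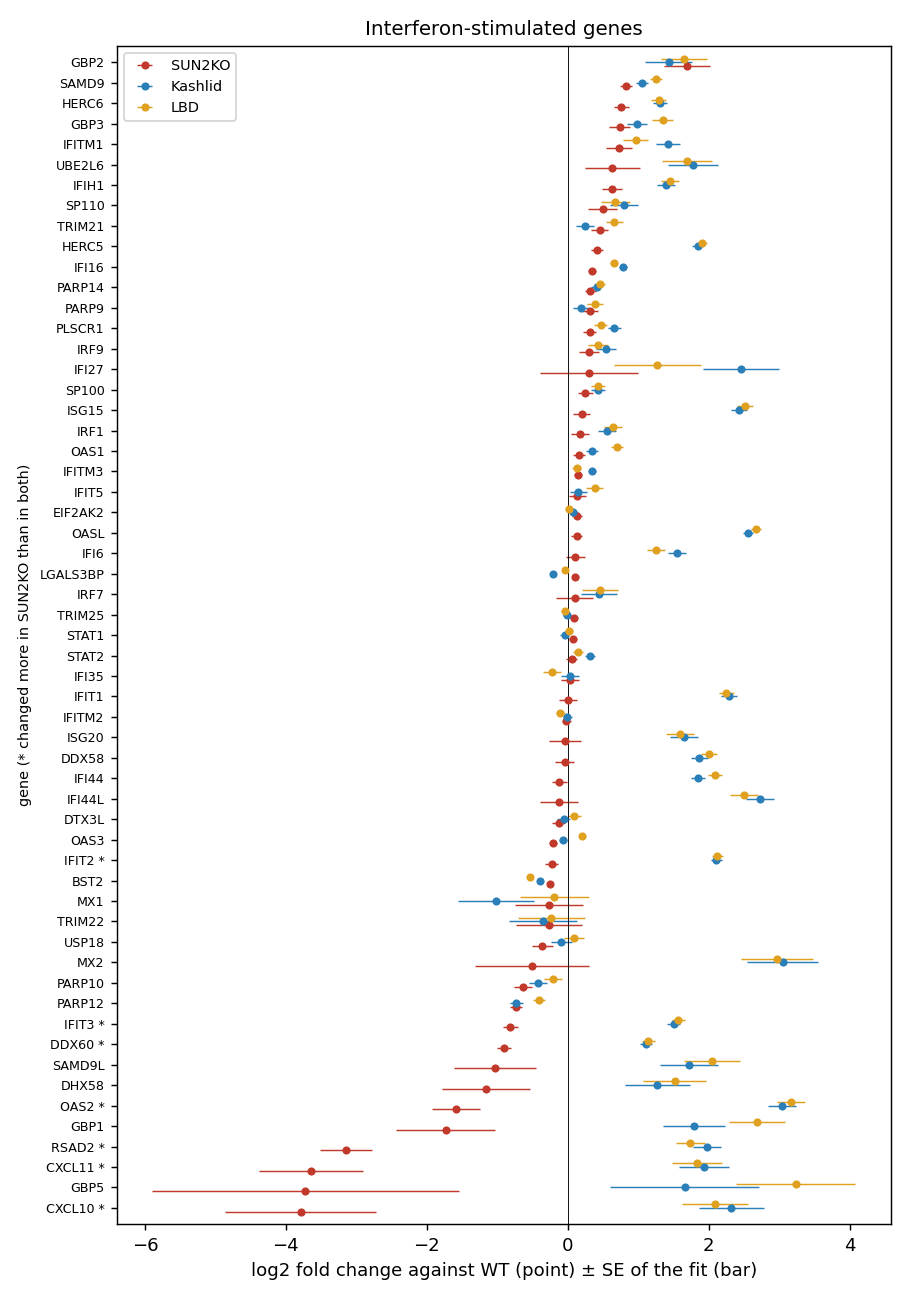
Log2 fold change against WT (horizontal axis, point, with the SE of the fit as a bar) of the 57 interferon-stimulated genes tested, in SUN2KO (red), Kashlid (blue) and LBD (yellow). Stars mark the 7 genes of the knockout set, in which red points lie left of 0 and the others right of it, as in RSAD2 at -3.14, 1.97 and 1.74.

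Interferon-responsive promoters carry repeats of GAAA, searched here as GAAANNGAAA on both strands in the same windows. Of 44 list members with a promoter, 30 (68.2%) held a match, against 441 of 10939 tested genes (4.03%). Among the 5 genes of the knockout set with a promoter, 4 did (80%), and among the 39 others 26 (66.7%). With 5 genes, these shares cannot show whether the motif is more frequent in the genes that fell. The 4 stretches are shown for the genes that were below WT in the knockout, upstream bases only, with the repeats in capitals. They lie at chr2:6877617-6877656 (RSAD2, plus strand), chr10:89327826-89327899 (IFIT3, plus), chr4:168318781-168318855 (DDX60, minus) and chr4:76023694-76023733 (CXCL10, minus) on GRCh38.p14. The strand given is again that of the gene, in whose direction the bases are printed.
RSAD2: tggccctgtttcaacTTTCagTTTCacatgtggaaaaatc
IFIT3: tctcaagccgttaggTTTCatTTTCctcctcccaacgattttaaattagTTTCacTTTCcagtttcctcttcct
DDX60: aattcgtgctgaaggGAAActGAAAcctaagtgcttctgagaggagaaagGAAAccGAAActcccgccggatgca
CXCL10: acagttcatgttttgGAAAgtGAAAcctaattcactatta

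Secreted cytokines and the genes that restrain NF-kB followed. Of 24 chemokines, interleukins and growth cytokines, 8 were lower and 3 higher in SUN2KO (45.8%), with 5 lower and 1 higher in the knockout set (3 lower ones without SUN2KO replicate 2). CXCL10 and CXCL11, at 0 or 1 counts in the SUN2KO libraries, are on this list and on the interferon one, and count in both. CCL5, a chemokine that attracts T cells and monocytes, had 15.5 and 17.3 CPM in WT, 3.90 and 3.81 in SUN2KO, 42.8 and 44.8 for Kashlid and 38.1 and 49.8 for LBD. The knockout was 4.25-fold below WT (adjusted p = 2.63e-09), and the truncation lines were above it by 1.42 ± 0.11 each on the log2 scale. IL11 changed by -0.60 ± 0.20 in SUN2KO, and lost its call in DESeq2 (adjusted p = 0.172) and without either SUN2KO or either WT replicate (adjusted p from 0.0604 to 0.145). IL18, of the interleukin-1 family, rose by 0.37 ± 0.08.

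TNFAIP3 (A20, chromosome 6, 138188325 to 138204451 on hg19), a deubiquitinase that NF-kB induces and that restrains it, had 109 and 116 CPM in WT and 25.8 and 25.2 in SUN2KO. It had 65.7 and 37.8 CPM in Kashlid and 40.0 and 49.2 in LBD. All lines were below WT, and the knockout was 4.41-fold lower and below every truncation library, although the Kashlid libraries differed widely. Of 28 NF-kB subunits and feedback genes, 7 were lower (4 without SUN2KO replicate 1, 3 without WT replicate 2) and 5 higher (42.9%), and TNFAIP3, ZC3H12A (-0.37 ± 0.10) and TNIP1 (-0.26 ± 0.06) were in the knockout set. TNIP1, a partner of A20, passed by little and not without SUN2KO replicate 1 (adjusted p = 0.0502) or WT replicate 2 (0.067). ZC3H12A, an RNase that degrades cytokine messages, did not pass without SUN2KO replicate 1 (0.0604) or with its window median taken out (0.068).

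Feedback genes of the ERK pathway changed in a share near that of all genes. Of 47 immediate early and ERK feedback genes, 13 were lower and 4 higher in SUN2KO, a share of 36.2% beside 36.7%. The lower ones were 5 in DESeq2 or without SUN2KO replicate 2, 8 and 6 without WT replicates 1 and 2, and the higher ones 2 without WT replicate 1. DUSP4, an ERK phosphatase, fell from 140.1 and 143 CPM to 83.1 and 73.6, with 136 and 101 for Kashlid and 114 and 121 for LBD. The knockout set held DUSP4, SPRY4, ETV5 and ETV4 (the last picked after its values were seen), but 1 gene in DESeq2 or without SUN2KO replicate 2, 2 without Kashlid replicate 1 or WT replicate 2, and 8 without Kashlid replicate 2. SPRY4 (-0.49 ± 0.18) lost its call against WT in DESeq2 (adjusted p = 0.0709), without WT replicate 1 (0.0745), WT replicate 2 (0.16) or SUN2KO replicate 2 (-0.26, 0.373). ETV5 lost its call against the truncation mean without SUN2KO replicate 2 (adjusted p = 0.0776).

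Keratins 8 and 18 pair to form the filaments of simple epithelia. KRT8 had 1064 and 1024 CPM in WT, 1632 and 1657 in SUN2KO, 1056 and 1181 for Kashlid and 1347 and 1319.6 for LBD. KRT18 had 453 and 443 CPM in WT, 702 in each SUN2KO library, 529.6 and 598 for Kashlid and 609 and 608 for LBD. The knockout libraries were highest in both, with log2 fold changes of 0.66 ± 0.05 and 0.65 ± 0.05. Of 21 keratin and desmosome genes, 10 were higher (6 without SUN2KO replicate 2) and 2 lower in SUN2KO (57.1%), and KRT8 and KRT18 were in the knockout set. Against the truncation mean 7 were higher and 3 lower (beside 9.82% and 8.9% of all genes). Of 21 claudin and tight junction genes, 6 were higher, 3 lower and 12 did not pass (42.9%), with a median of -0.03.

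Of 26 epithelial adhesion and surface genes, 13 were higher and 1 lower in SUN2KO (53.8%), and the list medians were 0.46 for SUN2KO, 0.52 for Kashlid and 0.56 for LBD. Of these genes 6 were higher and 3 lower than in the truncation mean (beside 9.82% and 8.9% of all genes). The knockout set held EPCAM, EHF and ELF3 (1 gene in DESeq2, without either LBD replicate or without SUN2KO replicate 1). EPCAM, an epithelial adhesion molecule, had 2.85 and 3.47 CPM in WT, 7.31 and 8.70 in SUN2KO and 4.28 to 5.34 in the truncation libraries. EHF, an epithelial ETS factor, had 47.7 and 44.7 CPM in WT, 111 and 98.7 in SUN2KO, 76.1 and 67.0 for Kashlid and 91.7 and 85.8 for LBD. SPINT1, a membrane protease inhibitor, rose in all 3 lines, with log2 fold changes of 1.78 ± 0.17, 1.77 ± 0.17 and 1.76 ± 0.17. The 15 luminal breast markers, among them KRT8 and KRT18, summed to 2506 to 2531 CPM in SUN2KO, 1649 to 1696 in WT, 1772 to 1959 in Kashlid and 2116 to 2138 in LBD. Of these markers TFF3 had 0 counts in all libraries and PGR had 0 in SUN2KO, while ERBB2 had 1015 and 1078 and FOXA1 398 and 336 there. The part of luminal cells in these values was not tested.

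PTGS1 (cyclooxygenase 1), which makes prostaglandin precursors, showed the largest increase among named genes of the knockout set. It had 18.8 and 26.0 CPM in WT, 121 and 119 in SUN2KO, 58.7 and 58.8 for Kashlid and 79.8 and 88.2 for LBD, and was 5.35-fold above WT. In the same pathway PLA2G4A, the phospholipase that releases arachidonic acid, fell in the knockout (-0.41 ± 0.07) and rose in Kashlid (0.54 ± 0.06) and LBD (0.67 ± 0.06). ALOX5, the leukotriene enzyme, rose less in SUN2KO (1.67 ± 0.20) than in the other lines (2.66 ± 0.18 and 2.76 ± 0.18). Of 23 genes of prostaglandin and leukotriene synthesis and reception, 7 were higher and 5 lower (3 without either SUN2KO replicate or without WT replicate 2) (52.2%).

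EFR3B, a plasma membrane scaffold of a lipid kinase, had 12.4 and 12.1 CPM in WT, 34.2 and 34.3 in SUN2KO and 11.2 to 13.8 in the truncation libraries. Its 2.80-fold rise was thus found in the knockout and not in either truncation line, where log2 fold changes were 0.03 ± 0.13 and 0.02 ± 0.13. PZP, a protease inhibitor of the alpha-2-macroglobulin family, was at 6.66 and 3.01 CPM in WT, 14.4 and 15.4 in SUN2KO and 0.359 to 0.704 in the truncation libraries. It was above WT in the knockout by 1.63 ± 0.23 (2.31 without WT replicate 1) and far below it in Kashlid (-3.03 ± 0.38) and LBD (-3.43 ± 0.41). BCAM, a laminin receptor, rose from 18.2 CPM in each WT library to 45.5 and 43.1, and to 29.8 to 32.3 in the truncation libraries.

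The other named increases were smaller or at lower levels. They were PI3 (elafin, 2.72-fold), AATK (2.61-fold), MMP24 (2.21-fold), BDKRB2 (the bradykinin receptor, 2.01-fold), FGD4 (1.94-fold), EVA1A (1.91-fold), RCBTB2 (1.87-fold), AFF1 (1.85-fold) and ASB9 (1.84-fold). MMP24, a membrane metalloprotease, was at 14.4 and 11.9 CPM in SUN2KO and at 4.74 to 6.87 in the 6 other libraries. RCBTB2 lost its call against WT with its window median taken out (adjusted p = 0.0687) or without WT replicate 1 (0.0692). Against the truncation mean it lost its call without either SUN2KO replicate, as did PI3 and EVA1A without SUN2KO replicate 1 and EPCAM without SUN2KO replicate 2.

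The largest decrease among the named genes was in STC1, a secreted glycoprotein (chromosome 8, 23699434 to 23712320 on hg19), which had 755 and 997 counts in WT and 3 and 19 in SUN2KO. It stood at 9.02 and 16.1 CPM in Kashlid and 3.53 and 18.8 in LBD, and 44.9 and 56.6 in WT. All lines were below WT, the knockout furthest, and replicates differed more than in other genes. The log2 fold change was -6.40 ± 0.55, but -5.62 without SUN2KO replicate 1 and -8.23 without SUN2KO replicate 2, and against the truncation mean -4.30 ± 0.62, with -3.52 and -6.12 in the same order and -3.47 without LBD replicate 2.

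SNAP25, a SNARE of exocytosis, fell from 11.8 and 14.1 CPM to 4.17 and 4.62 in SUN2KO, with 7.23 to 8.90 in the truncation libraries. TSPAN8, a tetraspanin, fell from 39.4 and 39.1 CPM to 15.5 and 13.1, with 26.1 to 28.3 in the truncation libraries. In both the truncation lines stood between WT and the knockout. IGFL2, of the insulin growth factor-like family, was 2.83-fold lower in SUN2KO and did not pass in Kashlid (0.42 ± 0.23) or LBD (0.55 ± 0.22). GNG11 (3.91-fold), the natriuretic peptide receptor NPR3 (3.89-fold), HIBADH (2.63-fold) and RASA4B (2.59-fold) were lower as well. HIBADH lost its call against the truncation mean without SUN2KO replicate 2 (-0.22, adjusted p = 0.194). RASA4B has a near-identical paralog with which reads may be shared, so its value is uncertain.

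Cytosolic chaperones did not follow those of the ER. Of 44 tested, 14 were higher and 9 lower in SUN2KO (52.3%), the higher ones being 6 and 9 without SUN2KO replicates 1 and 2 and 4 without WT replicate 2. The knockout set held 5 higher ones, HSPD1, BAG2, BAG1, CCT7 and HSP90AA1 (2 in DESeq2 or without LBD replicate 2 or WT replicate 2, 1 and 3 without SUN2KO replicates 1 and 2, and 8 without Kashlid replicate 2). HSP90AA1, the inducible cytosolic Hsp90, had 2636 and 2387 CPM in WT, 3407 and 3206 in SUN2KO, 2589.8 and 2725 for Kashlid and 3081 and 2868 for LBD. It was highest in the knockout, by 0.40 ± 0.05 over WT, where the ER Hsp90 HSP90B1 was lowest. HSPD1 and BAG2 were picked after their values were seen. BAG1 lost its call against WT in DESeq2 (adjusted p = 0.178) and without SUN2KO replicate 2 (0.225) or WT replicate 2 (0.429), and CCT7 its call against the truncation mean without SUN2KO replicate 1 (0.0689).

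Of 32 NRF2 targets and aldo-keto reductases, 9 were higher and 8 lower in SUN2KO (53.1%), and the knockout set held 4 higher, among them NQO1, FTH1 and FTL (2 without SUN2KO replicate 1), and 1 lower (ABCC3). NQO1, a quinone reductase, had 325 and 306 CPM in WT, 423 and 381 in SUN2KO, 256 and 267 for Kashlid and 315 and 291 for LBD. NQO1 was thus above WT in the knockout (0.35 ± 0.06) and below it in Kashlid (-0.27 ± 0.06). The ferritin chains FTH1 (0.20 ± 0.03) and FTL (0.26 ± 0.05), picked after their values were seen, store iron. The drug transporter ABCC3 fell by 0.75 ± 0.06.

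In several pathways the truncation lines moved and the knockout moved less. Of 59 mitosis genes, 13 were lower and 4 higher in SUN2KO (28.8% against 36.7% of all genes). In Kashlid 44 were lower and in LBD 34, beside 22.7% and 21% of all genes. Without SUN2KO replicate 2 or WT replicate 1 the 13 became 8. The medians were -0.04, -0.32 and -0.20. Set against the truncation mean, 39 were higher and 0 lower in SUN2KO, beside 9.82% and 8.9% of all genes. MKI67, a proliferation marker, was at 411 and 402 CPM in WT and 558 and 531 in SUN2KO, but its increase of 0.42 ± 0.04 turned to -0.27 (adjusted p = 7.74e-05) with its window median taken out. NCAPD2, the other mitosis gene of the knockout set, turned from 0.23 ± 0.05 to -0.02 (adjusted p = 0.801), and lost its call against the truncation mean without SUN2KO replicate 1 (adjusted p = 0.0568).

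Of 42 targets of SRF, the actin-responsive factor, and contractile genes, 16 were lower (8 without SUN2KO replicate 2, 10 without WT replicate 1) and 5 higher in SUN2KO (50%), beside 30 lower in Kashlid and 25 in LBD. MYLK3, a myosin light chain kinase and the 1 member of the knockout set, had 9.99 and 11.4 CPM in WT, 18.6 and 18.5 in SUN2KO and 1.02 to 2.08 in the truncation libraries. It was thus above WT in the knockout and below WT in both others. Of 31 genes of sterol synthesis and uptake, 16 were lower and 1 higher in SUN2KO (54.8%). In Kashlid 22 were lower and in LBD 24, with medians of -0.19, -0.43 and -0.46 in the 3 lines. The counts lower in Kashlid and LBD, here and for the SRF list, stand beside 22.7% and 21% of all genes. HMGCS1, an early enzyme of cholesterol synthesis, was 0.16 ± 0.06 above WT in the knockout (adjusted p = 0.0401, not past the threshold in DESeq2, without either SUN2KO or either WT replicate, or without LBD replicate 1) and below it in Kashlid (-0.47 ± 0.06) and LBD (-0.38 ± 0.06).

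Among 82 ligands, receptors and antagonists of Notch, Wnt and TGF-beta signalling, 18 were higher and 18 lower in SUN2KO (43.9%). The knockout set held 6 higher (3 without SUN2KO replicate 1 or Kashlid replicate 2, 2 without LBD replicate 2) and 2 lower. JAG1, a Notch ligand, had 35.0 and 39.0 CPM in WT, 16.2 and 16.3 in SUN2KO, 36.1 and 25.0 for Kashlid and 29.1 and 25.6 for LBD. It was lowest in the knockout (-1.19 ± 0.13), as was BMP6 (-0.52 ± 0.07), and SMAD3, the TGF-beta effector, was higher (0.49 ± 0.10). BMP6 lost its call against the truncation mean without SUN2KO replicate 2 (adjusted p = 0.0698). Of 42 hypoxia and glycolysis genes, 10 were higher (6 without SUN2KO replicate 2) and 13 lower (54.8%), with PFKFB4 (-0.61 ± 0.11) and BNIP3L (-0.74 ± 0.11) lower and LDHB (0.54 ± 0.04) higher in that set. The difference of LDHB from the truncation mean (0.15) did not pass without SUN2KO replicate 1 (0.12, adjusted p = 0.112).

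Of the partners of SUN2, none were in the knockout set. Of 24 LINC complex and nuclear envelope genes, 7 were higher (2 without SUN2KO replicate 1, 4 without WT replicate 1) and 7 lower in SUN2KO (58.3%), and 0 passed all 3 tests, SUN2 included, whose difference from LBD missed the threshold (adjusted p = 0.0501). SYNE2, the gene of Nesprin-2, had 106 and 107 CPM in WT, 142 and 148 in SUN2KO, 137 and 134 for Kashlid and 122 and 111 for LBD. It was highest in the knockout (0.45 ± 0.06), and the difference from the truncation mean was 0.21 ± 0.05 (adjusted p = 0.00376). SUN1, the paralog of SUN2, and LMNA, the gene of lamins A and C, were named after their values were seen. SUN1 fell by 0.31 ± 0.07 and LMNA by 0.17 ± 0.05, and neither differed from the truncation mean past the threshold.

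**Figure D5:**
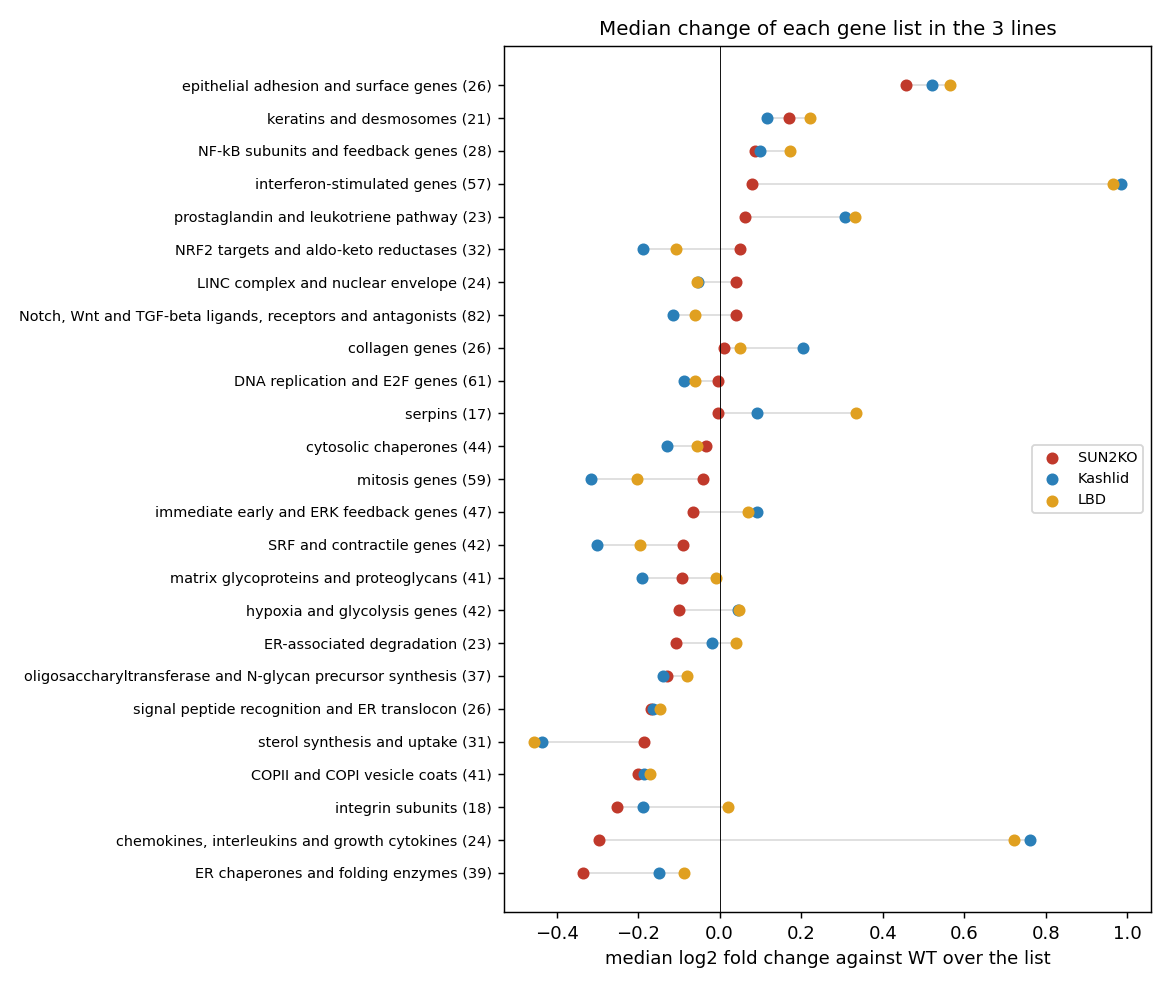
Median log2 fold change against WT (horizontal axis) over the tested genes of each list (vertical axis, number tested in brackets) in SUN2KO (red), Kashlid (blue) and LBD (yellow), which share the WT libraries. Among these lists ER chaperones have the lowest knockout median (-0.34), and the widest gap between the knockout and the other lines is in the cytokines and the interferon-stimulated genes (0.08 against 0.98 and 0.96). The cytokine and interferon lists both hold CXCL10 and CXCL11.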

How the data were processed

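The tools the authors used were Trim Galore, STAR 2.7.1a, bedtools 2.24.0, HTSeq and DESeq2, with the hg19 build, per the submitters' processing notes. The deposited counts are raw reads per gene for 25369 genes in 8 libraries, with 0 entries naming no gene. Neither annotation version nor strandedness is given in the sources used here, and near-identical or overlapping genes may therefore share reads. The authors' deposited tables also give log2 fold changes, p-values and adjusted p-values against WT. They served as a check, which is not independent because the libraries are the same. In the SUN2KO one of the authors' deposited tables, 3732 genes had an adjusted p under 0.05. Of these, 3690 were called here in the same direction. With 5137 genes called here, a part of the calls did not pass there. The unnamed columns of per-library values, 12 over the 3 tables together, were not used.

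The tests ran in edgeR 4.0.16 under R 4.3.3. They used filterByExpr, TMM factors and the two-sided quasi-likelihood test. All 8 libraries entered 1 fit, each group being a term, which left 4 residual degrees of freedom. Calls needed a Benjamini-Hochberg adjusted p under 0.05, adjusted over the 14016 genes. The steps were tested on simulated data. The members and lists were chosen with earlier results of these data known. Genes named are SUN2, the 15 largest changes each way of the knockout set at a mean of at least 5 CPM (loci without a product name left out), and of each list up to 4 called members and up to 3 of the knockout set, in order of size. Genes named beyond this rule are marked in the text. Alternatives were other scaling, no or a stricter filter (5 CPM in 2 libraries), DESeq2 1.42.0, a replicate block, fits of the compared groups alone, a 2-fold limit, leaving out each library, and taking out the median of each 5 Mb window with at least 15 genes. Promoters are RefSeq's (GRCh38.p14), matched by symbol or synonym for 10939 of 14016 tested genes, and a gene counted as holding a motif where any listed promoter did. Some genes and 1 list are not reported here.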

Additional observations from a re-analysis of the deposited data

Results flagged for a closer look

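In 34 genes SUN2KO was above WT and the mean of the truncation lines below it, and in 56 genes the reverse held, each time past the threshold with all 8 libraries. The test of the difference between SUN2KO and the truncation mean gave the log2 values below. Those lower in SUN2KO were RSAD2 (-5.00), OAS2 (-4.69), CCL5 (-3.51), DDX60 (-2.03), IGFL2 (-1.98), ITGA2 (-1.36), DCN (-1.20), IL11 (-1.17), PLA2G4A (-1.01), SPRY4 (-0.86), HERPUD1 (-0.79), ITGB4 (-0.67), SERPINB5 (-0.54) and TNIP1 (-0.45). Those higher were PZP (4.86), MYLK3 (3.53), IL18 (0.61), HMGCS1 (0.58) and NQO1 (0.51). The calls of SPRY4, IL11, HMGCS1, TNIP1 and OAS2 against WT were lost when single libraries were left out, and those of SPRY4, IL11 and HMGCS1 also in DESeq2, as given beside each gene above.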

How the results depend on the processing

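Of 238 results of genes that the naming rule gave, 192 kept direction and call in every setting tried, 42 lost the call in at least 1 and 4 changed direction. Genes picked after their values were seen, such as HSPA5, are not in this tally. Those 4 did so when the window median was taken out: MKI67 (-0.27), NCAPD2 (-0.022), MCM10 (0.12) and HSPA14 (0.011). Why genes of these windows moved together was not tested. Leaving out 1 library gave 3563 to 5634 genes for SUN2KO against WT (630 at 2-fold), 1172 to 2843 against the truncation mean (325), 1202 to 2472 against Kashlid (320) and 881 to 2386 against LBD (290, and 1246 in DESeq2). The knockout set had 230 to 505 genes (90 at 2-fold, 303 in DESeq2, 426 with window medians taken out, of which 329 were shared). Scaling by library size alone gave 996 higher and 1574 lower genes against Kashlid and 718 and 1128 against LBD, beside 1279 and 1250, and 952 and 938. Deviations of libraries with the same replicate number correlated at -0.015 to 0.10. With 2 libraries per group, these values cannot show whether same-numbered libraries share a batch. The replicate block gave 5412 genes against WT and 537 in the knockout set. Genes near 1 count in SUN2KO, such as CXCL10, are limited by depth.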
